A study of Mus musculus with 18 samples.

Results

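The 10 genes described here encode lysine demethylases of the Jumonji C (JmjC) family. They were chosen by gene symbol as Kdm2a, Kdm2b, Kdm3a, Kdm3b, Kdm4a, Kdm4b, Kdm4c, Kdm5a, Kdm5b and Kdm6b, and all 10 were found in each deposited table, among 14804 genes listed in at least 1 of the 3 tables. The study profiled mouse E14 embryonic stem cells (ESCs), trophoblast stem cells (TSCs) and extra-embryonic endoderm stem (XEN) cells, which stand in culture for the epiblast, the trophectoderm and the primitive endoderm. Each cell type was sampled in normoxia (20% O2), on day 2 of hypoxia and on day 7 of hypoxia (2% O2), with 2 libraries per group and 18 in all. The sample titles give normoxia no day, so days of hypoxia and days in culture cannot be told apart. ESCs were grown in serum and LIF on gelatin without feeder cells, TSCs on a feeder layer with FGF4 and heparin, and XEN cells in medium conditioned by fibroblasts, and these conditions were shared by the normoxic and hypoxic groups of a cell type. Each cell type stands for 1 line or stock, so differences between cell types and between lines cannot be told apart.

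JmjC demethylases remove methyl groups from histone lysines in a reaction that consumes molecular oxygen and 2-oxoglutarate, with iron as cofactor. KDM2 enzymes act mainly on H3K36, KDM3 enzymes on H3K9, KDM4 enzymes on H3K9 and H3K36, KDM5 enzymes on H3K4 and KDM6 enzymes on H3K27, so together they act on marks of active and of silent chromatin. Several genes of the family, Kdm3a and Kdm4b among them, are known targets of the hypoxia-inducible factors (HIFs), and the enzymes differ in how far low oxygen slows them. Only transcript levels were measured here, and neither enzyme activity nor histone methylation was.

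Library size ranged from 35592641 to 75204029 reads, as recovered from the TPM values, and every demethylase gene was well covered, with 942 to 60180 reads per library and no value at 0. The tables gave TPM, a read count divided by gene length and by library size, and the length used was that of the full locus with its introns. The genes span 15168 bases (Kdm6b) to 163364 bases (Kdm4c), so these values served to compare one gene between libraries. Levels of different genes were compared only on TPM recomputed with exon length. This assumes that reads were counted in exons alone, which was not given in the sources used here. Exons make up 3.56% of the Kdm4c locus and 45.85% of the Kdm6b locus, so the assumption weighs more on Kdm4c. The 5 ESC markers summed to 6070 to 6858 TPM in ESCs, the 5 TSC markers to 647 to 1180 TPM in TSCs and the 5 XEN markers to 1877 to 2163 TPM in XEN cells. The ESC list, of which 4 markers were tested in TSCs, also summed to 172 to 1211 TPM there, below every ESC library. Most of it was Sox2, a gene that trophoblast stem cells express as well, and Pou5f1 was not among the 4 tested. TSC markers summed to 88.3 to 144 TPM in ESCs, where Elf5 was not among the 4 tested. In TSCs 3 libraries stood apart, normoxia replicate 1 and day 2 replicate 2 by their fibroblast transcripts and day 7 replicate 2 by a low median ratio to the other libraries. The loci of Kdm2b and Kdm5a overlap those of the coding genes Rnf34 and Ccdc77, and Kdm6b is overlapped by the non-coding Kdm6bos. The strand setting of the read counting was not given in the sources used here, so reads of these pairs may not be fully separable.

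The start regions of the genes were examined for the core sequence bound by HIFs, since the genes were followed in low oxygen. The RefSeq promoter table (mouse build GRCm38.p6) held windows for 5 of the 10 genes, 11 windows in all. The letters ACGTG and GCGTG were searched on both strands in the 250 bases before each RefSeq start; ACGTG lies inside the E-box CACGTG, so a match may be either. At least 1 match was held by 7 of the 11 demethylase windows and by 38.6% of all 32851 windows of that length. All Kdm2b windows are among the 7, and some of them overlap and hold the same matches, so the 7 are not separate promoters. The sequences below are those of the 3 genes whose ESC level stood furthest above the other cell types, with matches in capitals (CACGC is GCGTG read on the other strand, and each CACGTG holds ACGTG on both strands).
Kdm4c, chr4:74251629-74251878, plus strand, the whole window before an alternative start inside the gene: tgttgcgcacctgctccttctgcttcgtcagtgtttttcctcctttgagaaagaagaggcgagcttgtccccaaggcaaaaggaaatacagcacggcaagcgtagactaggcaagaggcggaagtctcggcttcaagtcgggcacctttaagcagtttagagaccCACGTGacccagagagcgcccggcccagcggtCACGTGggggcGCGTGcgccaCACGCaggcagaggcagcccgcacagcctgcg
Kdm5b, chr1:134559928-134560170, plus strand, the part of the window that precedes the first annotated base of the gene: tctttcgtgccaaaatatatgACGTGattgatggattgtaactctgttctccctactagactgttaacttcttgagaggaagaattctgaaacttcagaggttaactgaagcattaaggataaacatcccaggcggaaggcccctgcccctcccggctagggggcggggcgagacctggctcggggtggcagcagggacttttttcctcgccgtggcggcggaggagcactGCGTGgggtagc
Kdm3a, chr6:71632927-71632956, minus strand, 30 bases around the only match in its windows: ccgggaggctgtGCGTGtcttgtgagagag
The Kdm4c window held 6 matches within 85 bases of the start, 4 of ACGTG and 2 of GCGTG, and 6.58% of all windows held 3 or more. The Kdm5b window held 1 match of each kind. The Kdm3a windows held 1 match in all, 27 bases before a start and inside the annotated gene. The window at the 5′ end of Kdm4a and that at the outer 5′ end of Kdm4c held no match in these letters. A match describes the letters and does not show binding.

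For 8 of the 10 genes, 1 cell type was set apart from the others over all of its libraries, whatever the oxygen level. The tables were normalized separately for each cell type, so these levels were set side by side without a test. For 5 genes, Kdm3a, Kdm3b, Kdm4a, Kdm4c and Kdm5b, all 6 ESC libraries lay above all 12 TSC and XEN libraries, whereas 17.3% of the 10899 genes found in all 3 tables had this pattern. For Kdm5a and Kdm6b all 6 ESC libraries lay below the 12 others (19.4% of genes), and for Kdm2b all 6 TSC libraries lay below the 12 others (7.93% of genes). Kdm2a and Kdm4b overlapped between cell types throughout. None of the 10 genes had the remaining patterns, found among all genes at 10.8% (TSC libraries highest), 12.2% (XEN libraries highest) and 9.79% (XEN libraries lowest). Separation of 1 cell type was thus common among all genes. A gene can have more than 1 of these patterns, so their shares were not combined. The count of 8 was not tested against all genes and is not shown to be particular to this family. The same 8 genes were sorted in the same way when TPM was recomputed with exon length over the genes common to the tables.

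**Figure D1:**
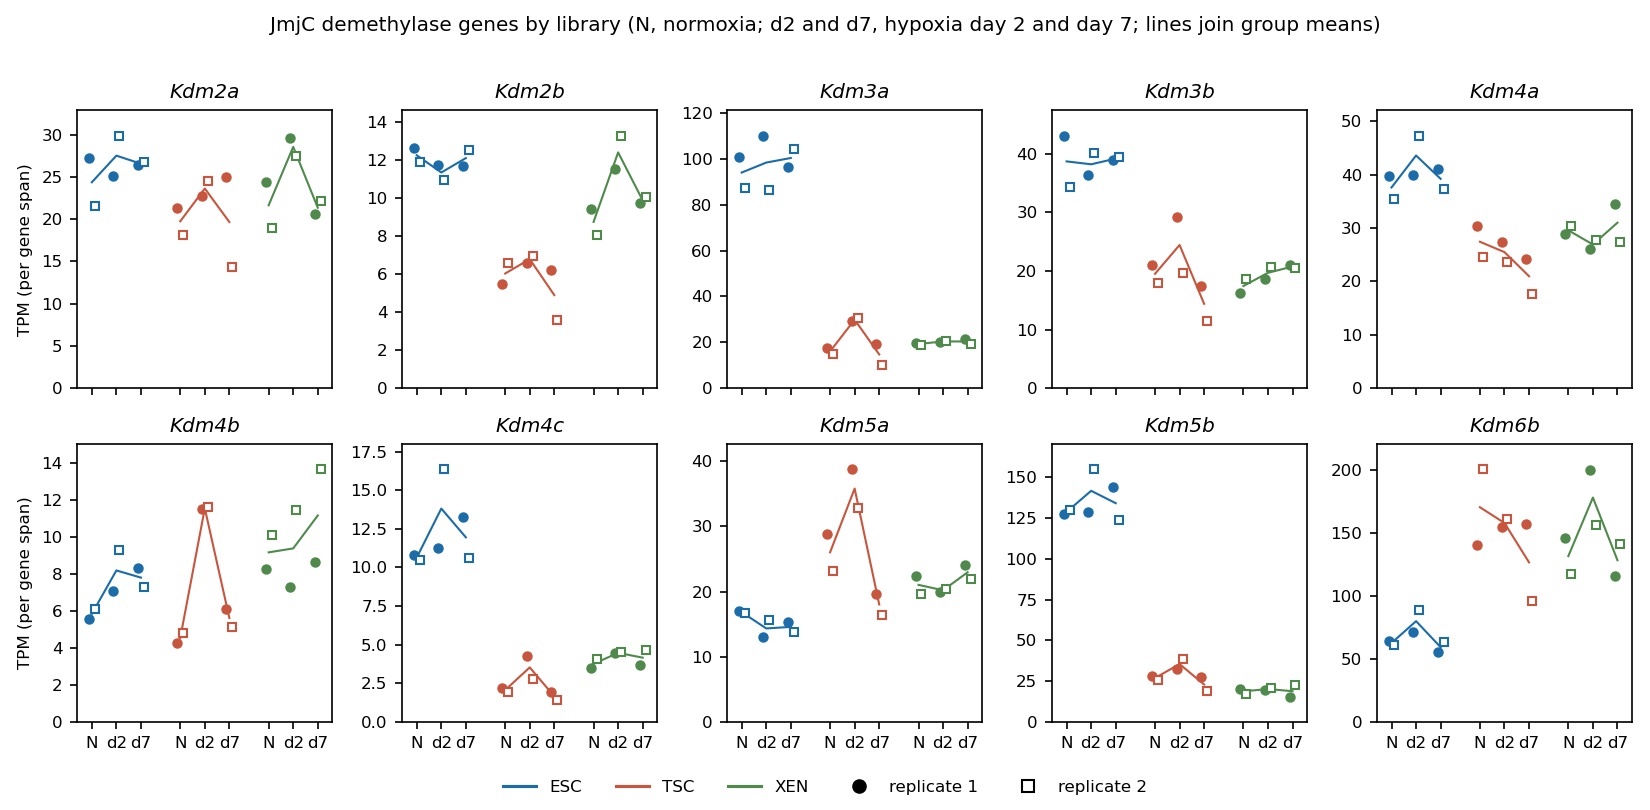
TPM of the 10 demethylase genes (vertical axes from 0, 1 scale per gene) in the 18 libraries, with cell types in colour, conditions along the horizontal axis (N, normoxia; d2 and d7, day 2 and day 7 of hypoxia), circles for replicate 1, squares for replicate 2 and lines joining group means. Kdm3a, Kdm4c and Kdm5b sit highest in ESCs, and in TSCs Kdm4b is at 4.29 and 4.80 in normoxia and at 11.5 and 11.6 on day 2.

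Kdm5b, an H3K4 demethylase known for its high level in ESCs, ranged from 124 to 155 TPM in ESCs, with a median of 129. Its median was 27.8 TPM in TSCs and 20.03 in XEN cells, so the ESC median was 4.65 times that of TSCs and 6.46 times that of XEN cells. Kdm3a, an H3K9 demethylase that also takes part in spermatogenesis and energy metabolism, had a median of 98.7 TPM in ESCs (86.7 to 110.2), 5.41 times its TSC median and 4.93 times its XEN median. Kdm4c, which acts on H3K9 trimethylation, had a median of 11.04 TPM in ESCs (10.5 to 16.3), against 2.06 in TSCs (1.39 to 4.28) and 4.24 in XEN cells (3.47 to 4.63). The gap between cell types was smaller for Kdm3b, at 2.08 times TSCs and 2.00 times XEN cells, and for Kdm4a, at 1.63 and 1.40 times.

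Kdm6b, the H3K27 demethylase also called JMJD3, had its lowest level in ESCs. It ranged from 55.6 to 88.7 TPM in ESCs, from 95.9 to 200.5 TPM in TSCs and from 116 to 199.8 TPM in XEN cells, and its ESC median was 0.408 times that of TSCs. Kdm5a, the H3K4 demethylase that binds the retinoblastoma protein, had a median of 15.5 TPM in ESCs, below the 26.01 of TSCs and the 21.1 of XEN cells. Kdm2b, a subunit of a variant Polycomb repressive complex that binds CpG islands, had medians of 11.8, 6.39 and 9.88 TPM in the same order. These are the 3 genes whose lowest cell type stood apart from the rest.

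Per exon length, the order of the 10 genes in ESCs was led by Kdm5b (median 207 TPM per exon length) and Kdm3a (182). These overlapped each other and lay above Kdm4c (108) and Kdm4a (103). The other 6 genes had ESC medians of 30.5 (Kdm5a) to 59.6 (Kdm3b), each overlapping its neighbour. In TSCs Kdm6b led, at 114 TPM per exon length, followed by Kdm4a at 61.6, and Kdm4c was last at 19.4. In XEN cells Kdm6b (98.1) and Kdm4a (66.0) led again, and Kdm3b was last at 26.8. All neighbours in the TSC and XEN orders overlapped over their 6 libraries. The orders in all cell types assume that reads were counted in exons alone.

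**Figure D2:**
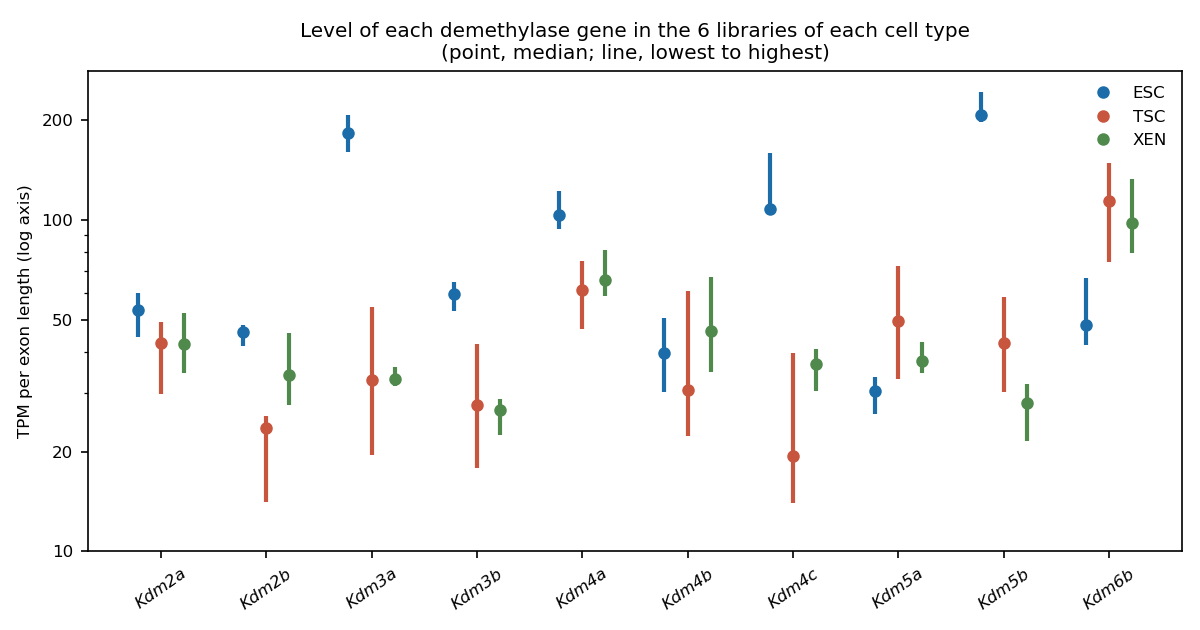
TPM per exon length (log axis) of the 10 demethylase genes in ESCs, TSCs and XEN cells, where the point is the median of 6 libraries and the line runs from the lowest to the highest. Kdm5b, Kdm3a and Kdm4c are separated upwards in ESCs, with medians of 207, 182 and 108, and Kdm6b leads in the other cell types.

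Hypoxia was compared with normoxia within each cell type with limma, and a gene was called differentially expressed (DE) at an adjusted p of 0.1 or less with a fold change over 1.5. Fold changes are on the scale of log2(TPM + 0.05). The study used the same cut-offs with edgeR and reported more DE genes in each cell type on both days. A gene that was not called here may therefore still have changed. In ESCs none of the 10 genes was DE on day 2, against 0% of all genes, nor on day 7, against 0.597% of all genes, nor between day 7 and day 2, against 0.147%. At an unadjusted p under 0.05 there were 1, 0 and 1 of the 10 genes in these comparisons (5.29%, 8.57% and 4.56% of all genes), Kdm6b both times, and weighting of the recovered reads with voom also called none. Log2 fold changes against normoxia ran from -0.24 to 0.47 on day 2 and from -0.21 to 0.41 on day 7. The 95% intervals of the 30 ESC estimates reached from -0.76 to 0.96, so changes of more than 2-fold lay outside all of them.

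Among the ESC libraries Kdm4b was the gene with the highest fold change. Kdm4b, an H3K9 and H3K36 demethylase and HIF target, was at 5.59 and 6.10 TPM in normoxia, 7.07 and 9.32 on day 2, then 8.31 and 7.31 on day 7. Every hypoxic library lay above both normoxic ones, at a log2 fold change of 0.47 ± 0.21 (SE, n = 2 per group, adjusted p = 0.948 by limma) on day 2 and 0.41 ± 0.21 on day 7. Kdm6b was at 64.2 and 61.1 TPM in normoxia, 71.2 and 88.7 on day 2, then 55.6 and 63.0 on day 7, so that only day 2 stood apart. Kdm5a was the one gene with all hypoxic ESC libraries below normoxia, at 17.0 and 16.6 TPM in normoxia, 13.0 and 15.6 on day 2, then 15.4 and 13.8 on day 7. Its log2 fold changes of -0.24 ± 0.16 and -0.21 ± 0.16 (SE) did not pass the test. Kdm3a did not separate at all, with normoxic values of 101 and 87.2 TPM and hypoxic values of 86.7 to 110.2 TPM.

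In ESCs 6 of the 10 genes had libraries on day 2 that did not overlap normoxia (30.9% of all genes), against 2 of the 10 on day 7 (41.3%) and 1 between the days (25.2%). The HIF pathway and hypoxia reference genes, a list of 17 of which 16 were tested, lay at a median log2 fold change of 0.97 (day 2) and 0.89 (day 7) in the same ESC libraries, where all genes had medians of 0.01 and 0.03. The 10 demethylase genes had medians of 0.16 and 0.06. Of the HIF list 11 and 10 genes had an unadjusted p under 0.05, and no gene was DE by limma.

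XEN cells likewise gave no DE demethylase gene, on day 2 (0% of all genes), on day 7 (0.13%) or between the days (0.00867%). At an unadjusted p under 0.05 the counts were 1, 0 and 1 of the 10 genes (7.81%, 9.04% and 11.9% of all genes), Kdm2b and then Kdm6b, and voom called none. Libraries did not overlap for 7, 2 and 4 of the 10 (40.9%, 41.1% and 47.6% of all genes). The 95% intervals of the 30 XEN estimates reached from -0.94 to 1.02. Kdm2b was at 9.45 and 8.05 TPM in normoxia, 11.5 and 13.3 on day 2, then 9.72 and 10.04 on day 7. Its day 2 libraries lay above the rest, at a log2 fold change of 0.50 ± 0.20 (SE, n = 2 per group, adjusted p = 0.603 by limma). Its relative Kdm2a, the other H3K36 demethylase of the set, was at 24.3 and 18.9 TPM, then 29.7 and 27.4, then 20.6 and 22.1, with the same day 2 maximum.

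Kdm6b in XEN cells was at 146 and 117 TPM in normoxia, 199.8 and 156 on day 2, then 116 and 141 on day 7. Its day 2 libraries were again above both other groups, with log2 differences of 0.43 ± 0.20 (SE) from normoxia and -0.47 ± 0.20 from day 2 to day 7. In ESCs the same pair of differences was 0.34 ± 0.14 and -0.42 ± 0.14, and in TSCs it was -0.09 ± 0.28 and -0.36 ± 0.28. None of these passed the adjusted threshold, and the difference between cell types was not tested. Kdm3a, for comparison, stayed between 18.8 and 21.4 TPM in the 6 XEN libraries, a range of 1.13-fold, where the HIF list had a median of 0.44 on day 2 (log2 fold change).

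**Figure D3:**
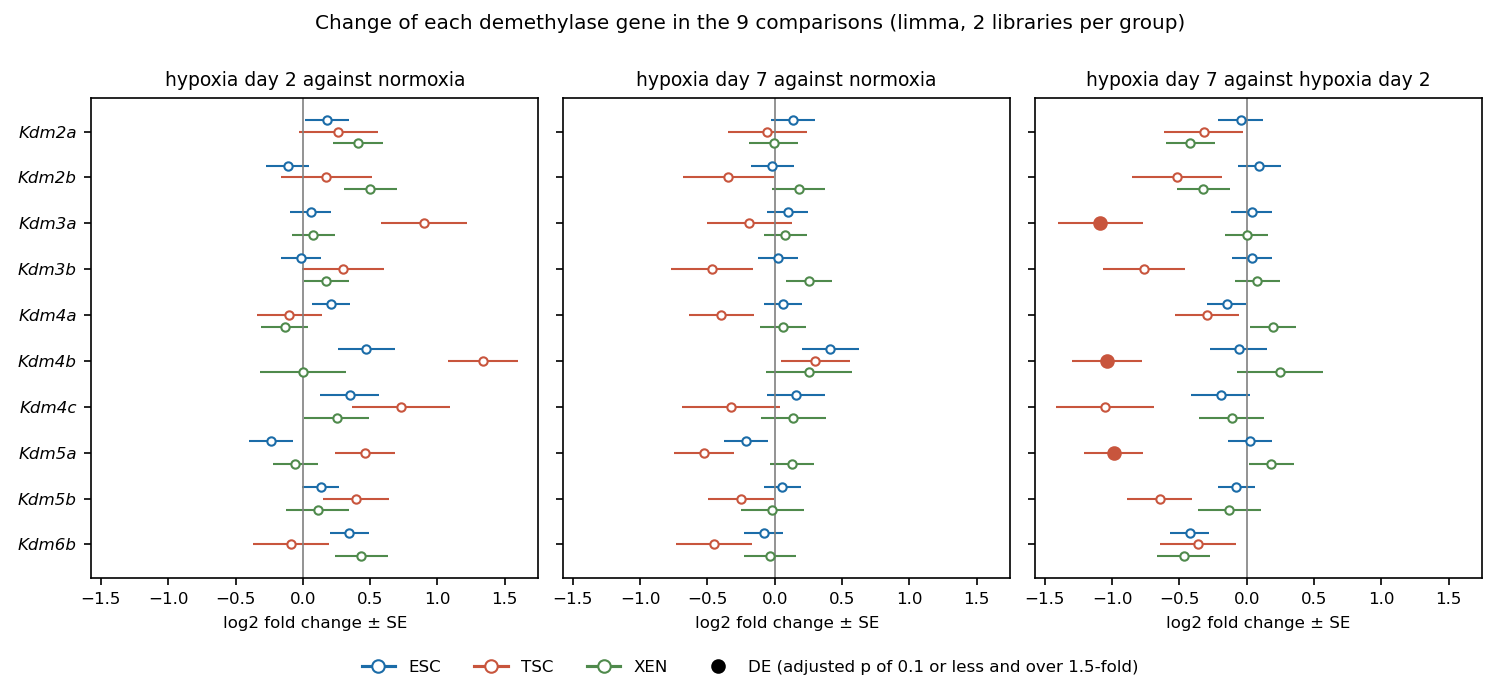
Log2 fold change of each demethylase gene (points) with its SE (bars) in the 9 comparisons, 1 panel per contrast, with cell types in colour and filled points for DE genes. The 3 filled points are Kdm3a, Kdm4b and Kdm5a in TSCs between day 7 and day 2, at -1.09, -1.04 and -0.99.

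Among the 10 genes the widest differences were measured in TSCs. No gene was DE on day 2 against normoxia (0.0814% of all genes) or on day 7 against normoxia (0.222%), by limma. At an unadjusted p under 0.05 there were 2 genes and 1 gene (12.4% and 10.4% of all genes), and voom called Kdm4b on day 2 and none on day 7. Between day 2 and day 7, 3 of the 10 genes fell, Kdm3a, Kdm4b and Kdm5a, where 14.6% of all genes were DE (12.5% lower and 2.08% higher), and 6 had an unadjusted p under 0.05 (26.8% of all genes). All 10 genes had a log2 fold change below 0 in that comparison, with a median of -0.71, while the median of all genes was -0.26. Libraries of the 2 days did not overlap for 7 of the 10, all lower on day 7, while 58.6% of all genes did not overlap and 44.4% were lower.

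Kdm4b was at 4.29 and 4.80 TPM in normoxic TSCs, 11.5 and 11.6 on day 2, then 6.13 and 5.12 on day 7. The day 2 pair was far above all other TSC libraries, and the day 7 pair was just above normoxia. The fold on day 2 was 2.53 (95% interval 1.65 to 3.87), a log2 fold change of 1.34 ± 0.26 (SE, n = 2 per group), with an unadjusted p of 0.0014 and an adjusted p of 0.175 by limma, which did not pass. With voom on the recovered reads the adjusted p was 0.0978, which passed. The fall from day 2 to day 7 was -1.04 ± 0.26 on the log2 scale (adjusted p = 0.0633), and on day 7 the difference from normoxia was 0.30 ± 0.26. The day 2 difference was 1.26 to 1.42 when any 1 library was left out.

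Kdm3a was at 17.4 and 14.7 TPM in normoxia, 29.3 and 30.4 on day 2, then 19.1 and 10.3 on day 7. Day 2 again lay above every other TSC library, at 0.90 ± 0.32 (SE, log2) over normoxia with an adjusted p of 0.342. The fall to day 7 was -1.09 ± 0.32 (adjusted p = 0.0893 by limma), with replicate 2 of day 7 well below replicate 1. Kdm4c had the same order of groups, at 2.19 and 1.94, then 4.28 and 2.78, then 1.92 and 1.39 TPM. Its differences of 0.73 ± 0.37 and -1.05 ± 0.37 did not pass (adjusted p = 0.467 and 0.128), and the second passed with voom at 0.0731.

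Kdm5a was at 28.9 and 23.1 TPM in normoxia, 38.7 and 32.8 on day 2, then 19.7 and 16.4 on day 7, so the 3 groups did not overlap at all. The step from day 2 to day 7 was -0.99 ± 0.22 (SE, log2, adjusted p = 0.0511 by limma), the smallest adjusted p of the 10 genes. That from normoxia to day 7 was -0.53 ± 0.22 (adjusted p = 0.479). The other H3K4 demethylase, Kdm5b, was at 28.3 and 25.5, then 32.4 and 38.5, then 27.3 and 18.7 TPM. Its difference from day 2 to day 7 of -0.65 ± 0.24 did not pass. Kdm3b, the second KDM3 gene, was at 21.1 and 17.99, then 29.3 and 19.6, then 17.4 and 11.4 TPM, with the day 7 pair below the rest.

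The 4 remaining genes differed less between TSC day 2 and normoxia and between the 2 days. On day 7 against normoxia they did not differ less as a set. There Kdm6b was at -0.45 ± 0.28, Kdm4a at -0.40 ± 0.24, Kdm2b at -0.34 ± 0.34 and Kdm2a at -0.06 ± 0.29 (SE, log2). Kdm2a and Kdm2b were at 14.4 and 3.597 TPM in day 7 replicate 2 and at 18.1 to 24.9 and 5.49 to 6.97 TPM in the other 5 libraries. Kdm4a ran from 17.7 to 30.3 TPM and was lowest in the same library, and Kdm6b ran from 95.9 to 200.5 TPM. Both day 7 libraries of Kdm4a (24.2 and 17.7 TPM) lay below both normoxic ones (30.3 and 24.5 TPM). On day 2, 7 of the 10 genes had both libraries above both normoxic ones (30.1% of all genes, and 46.6% in either direction), and Kdm3b, Kdm4a and Kdm6b overlapped. On day 7, 5 of the 10 did not overlap normoxia (40.9% of all genes).

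Without normoxia replicate 1 the day 2 differences from normoxia were 1.26 for Kdm4b, 1.02 for Kdm3a, 0.81 for Kdm4c, 0.62 for Kdm5a, 0.47 for Kdm5b and 0.41 for Kdm3b, and without day 2 replicate 2 they were 1.33, 0.87, 1.04, 0.58, 0.27 and 0.59 for the same genes. The day 7 differences from normoxia without normoxia replicate 1 were -0.37 for Kdm5a, -0.35 for Kdm3b and 0.22 for Kdm4b. None of the 10 genes was DE against normoxia without either library.

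TSC day 7 replicate 2 was the lowest of the 6 TSC libraries for 9 of the 10 genes and for 43.1% of all genes, and its median ratio to the other libraries was 0.825. When each library was rescaled by its median ratio, the median of all genes between day 7 and day 2 moved from -0.26 to 0.01 and that of the 10 genes from -0.71 to -0.42, still with 0 of 10 above 0. Kdm5a alone was then DE (-0.70, adjusted p = 0.0834), with Kdm3a at -0.81 (adjusted p = 0.117) and Kdm4b at -0.75 (adjusted p = 0.113). Without day 7 replicate 2 none of the 10 was DE, nor was any other gene, and the differences were -0.64 for Kdm3a, -0.91 for Kdm4b and -0.86 for Kdm5a, with Kdm2a at 0.08. Leaving out day 7 replicate 1 or day 2 replicate 1 also left no DE gene among the 10, and leaving out day 2 replicate 2 left Kdm5a.

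**Figure D4:**
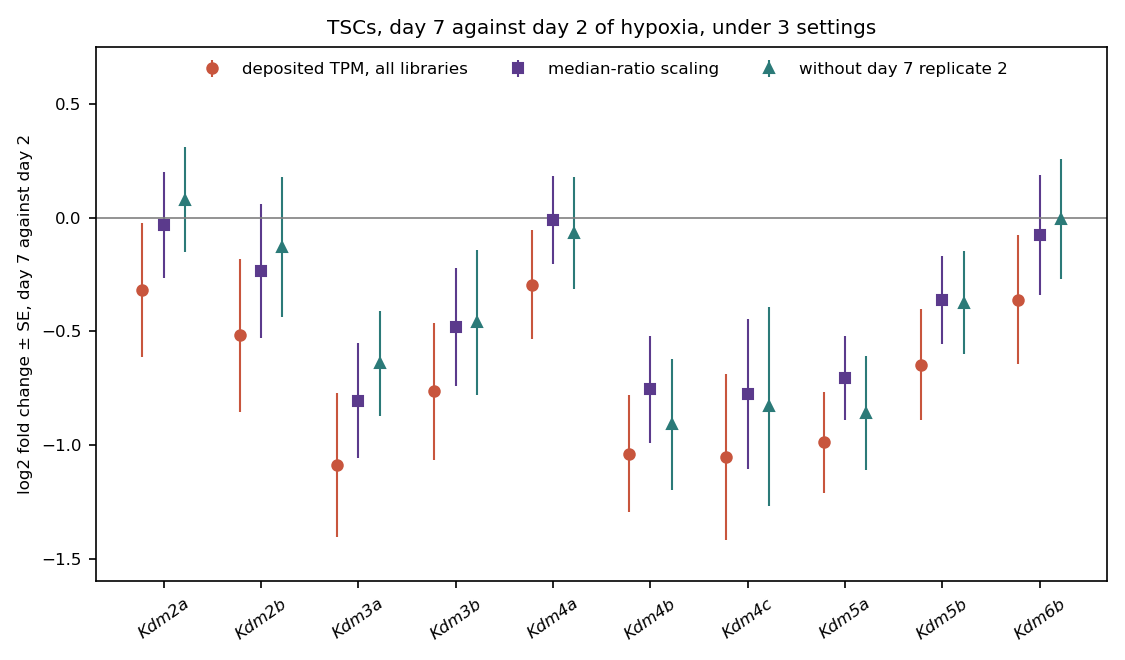
Log2 fold change with SE of the 10 demethylase genes in TSCs between day 7 and day 2 of hypoxia, from the deposited TPM of all libraries (circles), after median-ratio scaling (squares) and without day 7 replicate 2 (triangles). Kdm3a, Kdm4b, Kdm4c and Kdm5a stay lowest under each setting, while Kdm2a, Kdm4a and Kdm6b move to between -0.08 and 0.08.

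Markers of cell types also differed between the TSC groups. Of the 5 TSC markers 4 fell from day 2 to day 7, or 3 after median-ratio scaling, and the remaining one, Tfap2c, named after its values were seen, was at 0.27 with both day 7 libraries above day 2 (adjusted p = 0.372 by limma). Elf5, Cdx2 and Eomes, transcription factors of trophoblast stem cells, were at -2.33, -1.70 and -1.55 on the log2 scale (adjusted p = 0.00861, 0.0353 and 0.0391 by limma), and Cdx2 went from 140 and 125 TPM in normoxia to 88.0 and 169 on day 2, then 40.3 and 35.1 on day 7. All 4 ESC markers tested in TSCs fell between the days, with or without median-ratio scaling, led by Sox2 (-2.85), Nanog (-2.65) and Esrrb (-1.98), and their median was -2.31. Their sums were 741 and 786 TPM in normoxia, 1164 and 1211 on day 2, then 217 and 172 on day 7, with the highest values on day 2 as for Kdm4b and Kdm3a. Of 4 XEN markers tested, 1 fell, Gata4 (-2.41), from 2.42 and 1.73 TPM to 0.336 and 0.352. Markers of fibroblasts, the cell type of feeders, summed to 1844 and 260 TPM in normoxia, 196 and 947 on day 2, then 425 and 254 on day 7, with all 8 markers in the table. In ESCs, grown without feeders, 4 of these markers were tested and summed to 23.8 to 40.2 TPM. On day 7 against normoxia 2 of the 4 rose, Col1a1 (2.58) and Col1a2 (2.20), with a list median of 2.05. After median-ratio scaling Col1a1 alone was DE. The ESC sums were 28.4 and 24.8 TPM in normoxia and 40.2 and 31.7 on day 7. The feeder sums differed within each TSC group. The part of these markers in the changes of the demethylase genes was not tested. In bulk RNA, fewer cells of a type and less RNA per cell cannot be told apart.

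The HIF list served to show how known oxygen-responsive genes behaved in the TSC libraries. On day 2 its median log2 fold change was 1.03, and 2 of 16 were DE: Pdk1, which limits pyruvate entry into mitochondria, at 2.51 and Bnip3, a mitophagy receptor, at 2.49 (adjusted p = 0.0231 for both by limma). Pdk1 went from 15.5 and 14.5 TPM in normoxia to 89.6 and 82.0 on day 2 and back to 15.6 and 15.2 on day 7. From day 2 to day 7, 6 of 16 fell, led by Pdk1 (-2.48), Ankrd37 (-1.83) and Bnip3 (-1.79), and after median-ratio scaling 3 fell. The highest TSC library was a day 2 library for 7 of the 10 demethylase genes, replicate 1 for 3 and replicate 2 for 4, where 32.7% and 14.7% of all genes were highest in these libraries. In XEN cells 1 of 16 rose on day 7, the HIF prolyl hydroxylase gene Egln3 at 2.85 (adjusted p = 0.0222).

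Enzymes that write or remove the same marks gave the following counts in TSCs between day 7 and day 2. Among H3K9 methyltransferases, which oppose KDM3 and KDM4 enzymes, 3 of 6 fell (Suv39h2 -1.49, Setdb1 -0.79 and Ehmt2 -0.70), and 1 after median-ratio scaling, Suv39h2. In the H3K27 methyltransferase complex, which opposes Kdm6b, 3 of 4 fell (Ezh1 -1.04, Suz12 -1.04 and Ezh2 -0.66), and 1 after scaling, Suz12. No H3K4 methyltransferase (of 6) and no H3K36 methyltransferase (of 5) was DE by limma, with 1 and 0 at an unadjusted p under 0.05, and Setd1b was DE and higher after scaling. The flavin-dependent demethylases Kdm1a and Kdm1b, which use another chemistry, had a median of -0.38, with 0 DE and 1 at an unadjusted p under 0.05.

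Of 20 other JmjC-domain genes tested, 2 rose in TSCs from day 2 to day 7 and none fell. Hr, which encodes the nuclear receptor corepressor Hairless, was at 21.9 and 25.6 TPM in normoxia, 5.34 and 6.51 on day 2, then 24.0 and 14.6 on day 7 (1.66 ± 0.30, SE, log2, adjusted p = 0.0353 by limma). Hr was thus lowest on the day when Kdm3a and Kdm4b were highest. The second, Kdm5d, a Y-linked H3K4 demethylase, was below 0.4 TPM in all 18 libraries. Kdm5d was also DE and higher in ESCs on day 7, against normoxia and against day 2, as the only DE gene of this list there. The median of this list was -0.11, against -0.71 for the 10 genes described here.

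Within cell types, the 10 genes varied together to different degrees. Over the 18 libraries, on deviations of log2(TPM + 0.05) from the mean of the own cell type, Pearson's r between pairs ran from 0.11 (Kdm4b with Kdm6b) to 0.82 (Kdm3b with Kdm4c), a description in which points share library scaling and conditions. Over 10898 genes the nearest to Kdm4b were Ankzf1 (0.92), Fdps (0.89) and Acvr2b (0.88), and the nearest to Kdm3a were Wdr76 (0.92), Vps54 (0.90) and Maf1 (0.89). Kdm4c came closest to Pdcl (0.98), Rprd1a (0.96) and Lpin1 (0.96), and Kdm5b to Ppp2r5a (0.93), Fam117b (0.92) and Jarid2 (0.92). Kdm5a was nearest to Rnmt (0.93), Ncapg2 (0.92) and Rps6ka5 (0.92), and Kdm6b to Ubp1, Rnf44 and Bicra (0.88 each). The remaining nearest genes were Lrch3 for Kdm2a (0.88), Gatad2a for Kdm2b (0.87), Rpap1 for Kdm3b (0.92) and Trim3 for Kdm4a (0.91). With Spearman's correlation, only Lrch3 for Kdm2a, Ankzf1 for Kdm4b and Fam117b for Kdm5b stayed in the top 3. Kdm3a then came closest to Fbxl5 (0.89), Arl13b (0.81) and Emc10 (0.79). Most of the nearest genes thus depended on the measure used.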

How the data were processed

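RNA-seq of 18 libraries (KAPA RNA HyperPrep, 75-bp paired-end reads) was used. The authors trimmed reads with cutadapt 2.4, aligned them to mm10 with STAR 2.7.5a, assembled transcripts with StringTie 2.0.6 on GENCODE M19, counted reads with featureCounts (its annotation was not given in the sources used here), kept protein-coding genes over 0.4 CPM in 2 of 6 libraries with edgeR 3.26.8, and deposited TPM in 1 table per cell type. These TPM proved to be scaled by gene span. With that span 98.66 to 98.87% of values per library were whole multiples (within 0.05) of 1 read, which recovered the reads. All genes of a table (13578 in ESCs, 13518 in TSCs, 11538 in XEN cells) entered limma 3.58.1 (R 4.3.3) with a mean-variance trend on log2(TPM + 0.05). Each cell type's 6 libraries shared 1 fit, with Benjamini-Hochberg adjustment over all genes. The small pseudocount spares long genes. Gene positions and exon lengths came from GENCODE M21 (GRCm38) and promoters from RefSeq (GRCm38.p6). Genes named from other lists were at most 3 DE genes per list and direction by size, and for each demethylase the genes of highest r. The 10 genes and all lists were chosen with earlier results of these data known. The libraries are biological replicates by the study's methods. An exact permutation test of 2 against 2 libraries cannot go below p = 0.333, so none was used. In simulated ESC counts at a dispersion of 0.01, 99.5% of 2-fold changes were found, and 13.5% at 0.05. The simulation changed only genes with many reads and gave every gene the same dispersion. The dispersion of the real libraries was not set against it, so these shares do not give the sensitivity in the real data. Alternatives were pseudocounts of 0.5 and 0.01, a TPM filter, median-ratio scaling, a replicate block, no trend, the 4 compared libraries alone, voom on recovered reads, TPM with exon length and leaving out each library.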

Additional observations from a re-analysis of the deposited data

Results flagged for a closer look

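Several demethylase genes lay on opposite sides of their control libraries in different cell types, with both libraries of a group beyond both controls. Such separation was found for 30.9 to 58.6% of all genes in the comparisons named here. Of these opposite values only that of Kdm5a in TSCs between the days passed the limma test, and the differences between cell types were not tested. On day 2 against normoxia, Kdm2b was lower in ESCs (-0.11 on the log2 scale) and higher in TSCs (0.17) and XEN cells (0.50). Kdm4a was higher in ESCs (0.21) and lower in XEN cells (-0.14), and Kdm5a was lower in ESCs (-0.24) and higher in TSCs (0.46). On day 7 against normoxia, Kdm3b was lower in TSCs (-0.46) and higher in XEN cells (0.25). From day 2 to day 7, Kdm5a was lower in TSCs (-0.99) and higher in XEN cells (0.18). Within TSCs the level on day 7 differed from that on day 2, by the contrast between the days, for Kdm3a (-1.09), Kdm4b (-1.04) and Kdm5a (-0.99). The last differences were in the same direction without any 1 library and passed the threshold only with all 4 libraries of the 2 days, except for Kdm5a, which also passed without day 2 replicate 2.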

How the results depend on the processing

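Among the 10 genes, the count of DE genes was 0 in the 3 ESC and 3 XEN comparisons and in TSCs on day 7 against normoxia under every setting run, each left-out library included. On day 2 in TSCs, voom on the recovered reads and a block of crossed replicate numbers (added after seeing the data) each gave 1 DE gene in place of 0, Kdm4b (adjusted p = 0.0978 and 0.0996). Between day 7 and day 2 in TSCs, 3 genes were DE, 1 after median-ratio scaling, 4 with voom or exon length (Kdm4c added), 2 without the mean-variance trend, and 0 to 3 when 1 library was left out, where a lone library was assumed to vary like the others. The cause was not tested. With a replicate block the same comparison gave 3. The numbers gave no steady sign of pairing, with deviations of same-numbered libraries correlated at -0.49 to 0.29. With 2 libraries per group, this check cannot settle whether the samples were paired. The block changed no other call among the 10 genes. Over all genes, the block moved the count from 81 to 16 (ESC day 7), 20 to 3 (ESC day 7 against day 2), 11 to 3 (TSC day 2), 30 to 10 (TSC day 7) and 15 to 34 (XEN day 7). Median-ratio scaling gave 1657 DE genes in TSCs between day 7 and day 2, 705 of them higher, in place of 1976 with 281 higher. Leaving out 1 library gave 0 to 2105 there, 0 to 321 for ESC day 2, 2 to 310 for ESC day 7, 0 to 125 for ESC day 7 against day 2, 0 to 14 for TSC day 2, 0 to 44 for TSC day 7, 0 to 63 for XEN day 2, 1 to 190 for XEN day 7 and 0 to 74 for XEN day 7 against day 2. Other settings gave 0 to 6 for ESC day 2, up to 307 for ESC day 7, up to 41 for ESC day 7 against day 2, 0 to 235 for TSC day 2, 5 to 74 for TSC day 7, 1 to 34 for XEN day 7 and 1 to 31 for XEN day 7 against day 2. The 10 genes had at least 942 reads in every library; the effect of read depth was not tested.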
